A study of Homo sapiens with 19 samples.

Results

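The genes described here encode the heterogeneous nuclear ribonucleoproteins (hnRNPs), the serine and arginine rich (SR) splicing factors, and a few of their closest partners. They were taken as the protein-coding rows of the RNA table with a symbol starting HNRNP or SRSF, plus TRA2A, TRA2B, U2AF1, U2AF2, SF3B1 and PTBP1. This gave 41 of the 24198 genes in the table, and 39 of these had a mean level of 1 FPKM or more over both RNA libraries. FPKM are fragment numbers scaled to transcript length and library size. HNRNPCL1 was listed at 0 in both libraries, and SRSF12 at 0.058 and 0.063 FPKM, so neither passed. The filter left 11671 genes in all.

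All samples were U2OS cells, an established human osteosarcoma line, and the series held 19 of them. For the samples labelled mock or EP400 siRNA, cells were transfected with a mock siRNA directed against GFP or with an siRNA against EP400, and were collected 72 h later. EP400 is the ATPase of a chromatin remodelling complex, and the study asks how it relates to the histone variant H3.3 at genes. RNA-seq was made from 1 mock and 1 EP400 siRNA library. Chromatin immunoprecipitation (ChIP) of Pol II, H3.3, H2AZ and the Mediator subunit MED26 was made once in each condition, and that of H3K18ac and H3K4me1 once after mock siRNA. EP400 itself was immunoprecipitated in 3 samples, whose peaks came as 1 list; their own labels name no siRNA. The 4 input samples were not analysed here. With 1 library per condition there was no replicate spread and no test: a gene is called higher or lower at a 2-fold ratio of FPKM + 1, and every ratio is on the log2(FPKM + 1) scale, which understates the change of low genes.

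SR proteins bind exonic enhancers and recruit the early spliceosome to nearby splice sites. Many hnRNPs bind exonic or intronic silencers and act against them, and the U2AF heterodimer and SF3B1 recognise the 3′ splice site and the branch point. Many genes of both families also hold conserved exons whose inclusion or skipping yields a transcript that is degraded by nonsense-mediated decay, a loop through which the proteins limit their own levels.

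EP400 RNA was 10.04 FPKM after mock siRNA and 2.28 FPKM after EP400 siRNA, 22.8% of the mock level. Over the whole table the values added up to 983896 FPKM (mock) and 584131 FPKM (EP400 siRNA), and the median log2 ratio of all analysed genes was -0.20. The number of fragments behind the values is unknown. Of 8 osteoblast-lineage and mesenchymal markers, 6 passed the filter, with VIM at 618 and COL1A1 at 376 FPKM in the mock library, while COL1A2 and SP7 were near 0. Of 12 markers of other cell types only the keratins KRT8 and KRT18 passed the filter, at 369 and 519 FPKM in the mock library, and ALB and CD3E were at 0 in both libraries.

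On the deposited scale most of these splicing factor genes had a higher FPKM after EP400 siRNA, against the direction of most other genes. After rescaling to equal sums, given below, most genes of either kind were above 0. The log2 ratio was above 0 for 27 of 39, where 42.7% of all analysed genes were above 0. The median ratio was 0.25. At the 2-fold threshold 2 were higher (all genes, 6.11%) and 3 were lower (all genes, 22.9%). Rescaled to equal sums, where the median of all genes was 0.48, 35 of 39 were above 0 (all genes, 64.3%), 20 were at least 2-fold higher (all genes, 31.5%) and 0 lower (all genes, 5.97%), with a median of 1.01. Only HNRNPA0, HNRNPUL1, U2AF2 and PTBP1 stayed below 0 on that scale, so a direction given here for a gene with a ratio between -0.61 and 0 holds for the deposited scale alone. The authors' confidence limits, summed here over the rows of a gene, lay apart between the libraries for 0 of the 39 and for 25 of all 11671 genes, so they separate few genes of any kind.

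**Figure D1:**
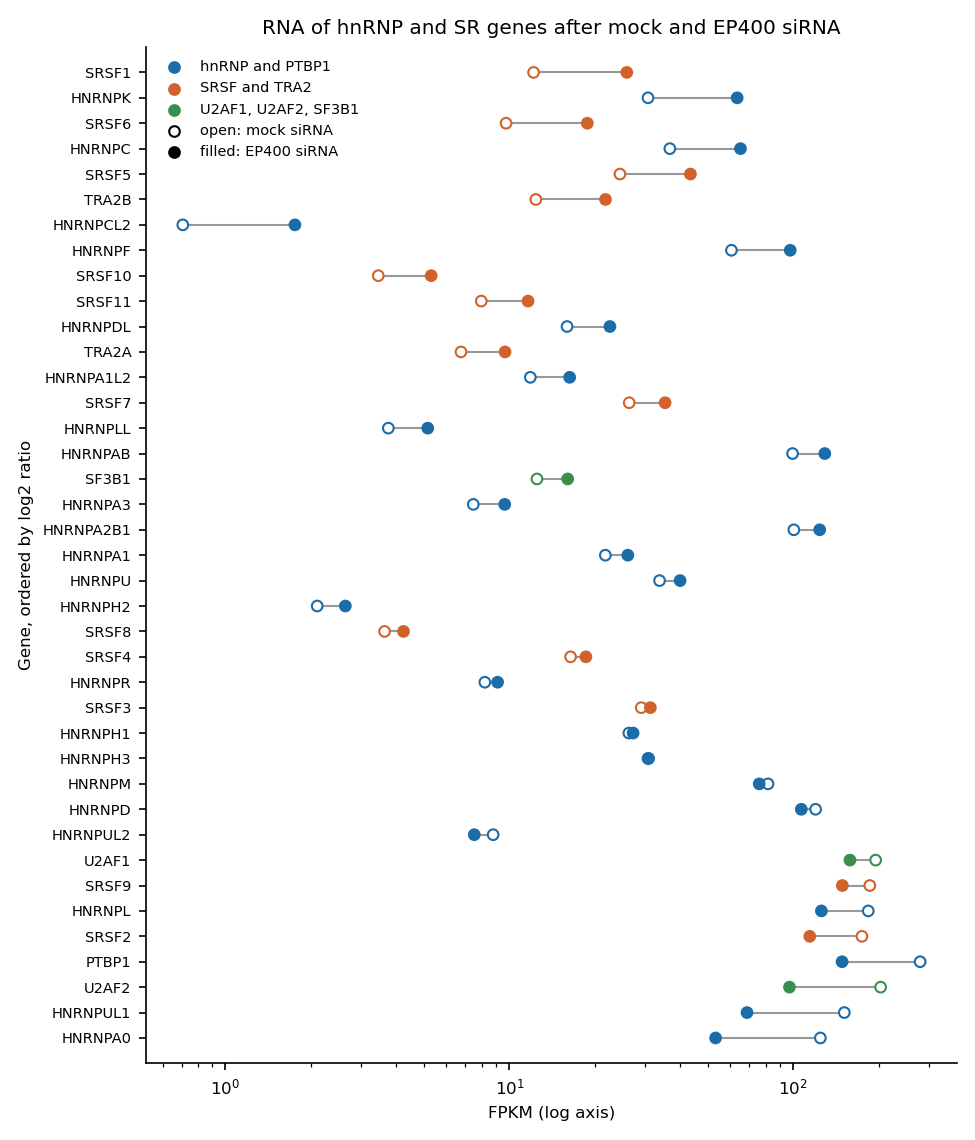
FPKM (log axis) of each of the 39 analysed genes after mock siRNA (open points) and EP400 siRNA (filled points), 1 library each, ordered by log2 ratio. SRSF1 and HNRNPK are at the top with ratios of 1.03 and 1.02, and HNRNPA0 is at the bottom with -1.21.

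Among the SR proteins, SRSF1, the founding member of the family, stood at 12.2 FPKM after mock and 25.9 FPKM after EP400 siRNA, a log2 ratio of 1.03. SRSF6 went from 9.73 to 18.8 FPKM (0.88), SRSF5 from 24.5 to 43.4 FPKM (0.80) and TRA2B, an SR-like activator of exon inclusion, from 12.4 to 21.8 FPKM (0.77). The last 3 lay inside the 2-fold threshold. In these 4 genes the EP400 siRNA library was the higher one by between 1.76 and 2.13 times.

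SRSF10, which is known to act as a splicing repressor when dephosphorylated, had 3.45 and 5.30 FPKM (0.50), and SRSF11 had 7.96 and 11.6 FPKM (0.50). TRA2A had 6.75 and 9.66 FPKM (0.46) and SRSF7, which also takes part in mRNA export, 26.4 and 35.4 FPKM (0.41). SRSF8 stood at 3.63 and 4.24 FPKM (0.18), SRSF4 at 16.4 and 18.6 FPKM (0.17) and SRSF3 at 29.1 and 31.4 FPKM (0.10). The 2 SR genes below 0 were also the 2 with the highest FPKM in the family: SRSF2 had 175 FPKM after mock and 114 FPKM after EP400 siRNA (-0.61), and SRSF9 186 and 149 FPKM (-0.32). In all, 11 of 13 SRSF and TRA2 genes had a ratio above 0 (all genes, 42.7%), with a median of 0.46. After rescaling to equal sums 13 of 13 did (all genes, 64.3%).

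The hnRNP family, with PTBP1 counted among its 23 analysed genes, spread more widely around a median of 0.23. Of the 23, 15 were above 0 and 8 below (all genes, 42.7% above 0). HNRNPK, whose KH domains bind C-rich RNA and DNA, stood at 30.8 FPKM after mock and 63.4 FPKM after EP400 siRNA (1.02). HNRNPC, which binds uridine tracts of nascent transcripts, had 36.8 and 65.2 FPKM (0.81), and HNRNPF, which binds G tracts, 60.6 and 97.6 FPKM (0.68). HNRNPCL2, a relative of HNRNPC at a low level, had 0.707 and 1.76 FPKM (0.69). HNRNPDL had 16.0 and 22.6 FPKM (0.48).

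On the deposited scale the core A/B proteins differed little between the libraries. HNRNPA2B1 had 100.5 and 123.9 FPKM (0.30), HNRNPA1 21.8 and 26.1 FPKM (0.25), and HNRNPA3 7.46 and 9.63 FPKM (0.33). After rescaling to equal sums their log2 ratios were 1.07, 1.01 and 1.08, each past the 2-fold threshold. HNRNPAB had 99.4 and 129 FPKM (0.37), HNRNPU, a nuclear matrix protein, 33.8 and 39.9 FPKM (0.23), HNRNPLL, known for CD45 splicing in lymphocytes, 3.75 and 5.16 FPKM (0.38), and HNRNPA1L2 11.9 and 16.3 FPKM (0.43). HNRNPH2 had 2.10 and 2.64 FPKM (0.23), HNRNPR 8.19 and 9.09 FPKM (0.13), HNRNPH1 26.4 and 27.3 FPKM (0.05) and HNRNPH3 30.9 and 30.8 FPKM (-0.01). HNRNPA1, HNRNPA1L2, HNRNPC and HNRNPCL2 have near-identical copies in the genome, so reads could have been split between them. In all 8 analysed members, SRSF2 and SRSF5 among them, share their locus with a different gene, and whether strand was used in counting is not given in the sources used here. A row at the same locus as HNRNPA1 whose symbol is that of a pseudogene, HNRNPA1P10, was left out by the rule and stood at 21.8 and 31.9 FPKM. With that row added, the ratio of HNRNPA1 was 0.40.

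The lower end was made of genes with high RNA. HNRNPA0, an intronless gene whose protein binds AU-rich elements, had 125 FPKM after mock and 53.3 FPKM after EP400 siRNA (-1.21), or 42.7% of the mock level. HNRNPUL1 had 151 and 68.7 FPKM (-1.13), and U2AF2, the large U2AF subunit that binds the polypyrimidine tract, 203 and 97.0 FPKM (-1.06). PTBP1, which represses exons flanked by pyrimidine tracts, lay just inside the threshold with 280 and 149 FPKM (-0.91). HNRNPL, a binder of CA repeats, had 184 and 126 FPKM (-0.55). HNRNPUL2 had 8.77 and 7.52 FPKM (-0.20), HNRNPD, an AU-rich element binder, 119.9 and 106.7 FPKM (-0.17), and HNRNPM 81.5 and 75.9 FPKM (-0.10). Of the genes for 3′ splice site recognition, the small subunit gene U2AF1 had 195 and 158 FPKM (-0.30), and SF3B1 had 12.5 and 16.0 FPKM (0.34).

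Only at the highest RNA level was the median ratio of the members below 0, and at each level it lay above that of all genes. Quintiles of mean FPKM were set over all analysed genes, and 16 of the 39 fell into the highest one. There the median log2 ratio was -0.23, with 3 genes at least 2-fold lower and 1, HNRNPK, higher. Of all genes in that quintile 45.2% were at least 2-fold lower and 2.78% higher, and their median was -0.93. In the fourth quintile the 13 members had a median of 0.41, where all genes of that quintile had -0.56. In the lowest 3 quintiles, the 1, 4 and 5 members had medians of 0.69, 0.30 and 0.33. The medians of all genes there lay near 0, at 0.20, 0.18 and -0.07.

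**Figure D2:**
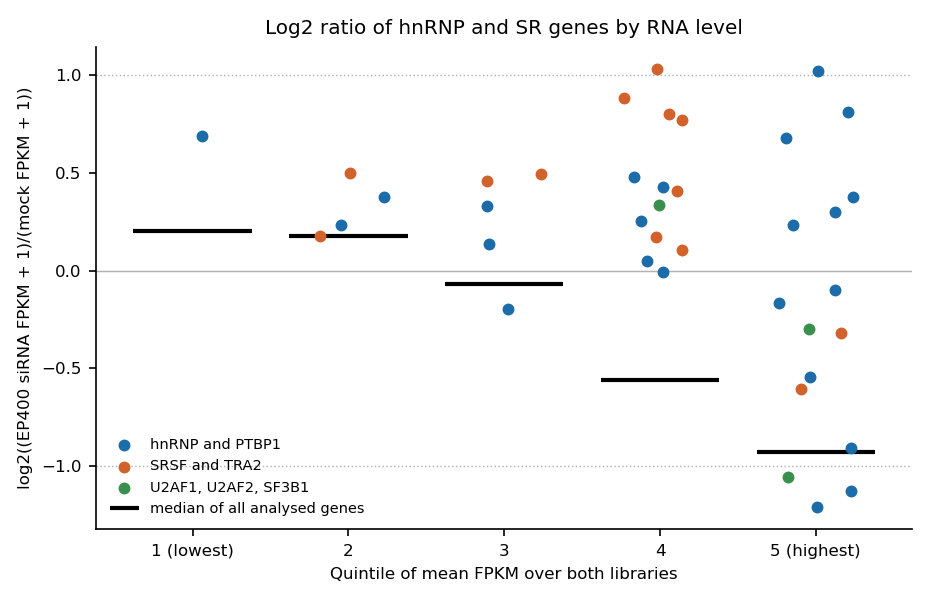
Log2 ratio of each analysed gene by quintile of mean FPKM, with points spread sideways for visibility and black lines at the median of all analysed genes in the quintile. In the highest quintile 13 of 16 points lie above the median of all genes there, -0.93.

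Location went with the ratio as well. Of the members, 5 lie on chromosome 19 (HNRNPUL1, U2AF2, PTBP1, HNRNPL and HNRNPM). All 5 had a ratio below 0, with a median of -0.91, and 748 of all 831 analysed genes on chromosome 19 were below 0. The median of those 831 was -1.05, a difference of little size beside the range of the 5 members from -1.13 to -0.10. After rescaling to equal sums 2 of the 5 were above 0 (all genes there, 234 of 831). Their median was then -0.14 (all genes on chromosome 19, -0.38). The other 34 had a median of 0.33. Gene density, counted as loci within 500 kb, had a median of 30 loci around the 5 members on chromosome 19 and 11 around the others. In the more gene-rich part of the genome, the upper 5 of 10 density groups, 8 of 16 members had a ratio above 0 (all genes there, 24.2%), and in the lower 5 groups 19 of 23 did (all genes there, 61.2%). What part RNA level and gene density have in the ratios was not tested.

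EP400 peaks lay at the ends of most of these genes. Within 2 kb of either end of the annotated locus, 29 of 39 (74.4%) had an EP400 peak, against 35.3% of all analysed genes and 48.0% of those in the highest quintile of mean FPKM. In all peak lists the ends are those of the locus, which 8 members share with another gene, so a peak can belong to that gene. The EP400 peak of HNRNPH3, for example, lay at the high end of a 124635 bp locus shared with PBLD and RUFY2. The 2 kb windows also reach past the locus of every member, so a peak outside the locus can belong to a neighbouring gene. Widths in the EP400 list ran in steps of 50 bp, and the list had no peak height. The widest EP400 peak near any member was 1250 bp at chr7:26240851-26242100 (hg19), by HNRNPA2B1. It lay wholly outside the HNRNPA2B1 locus, which ends at 26240413. Next came peaks of 750 bp at HNRNPDL (chr4:83350201-83350950) and SRSF1 (chr17:56084451-56085200). The 10 analysed members with no EP400 peak there were HNRNPL, HNRNPC, SF3B1, TRA2A, SRSF8, SRSF9, SRSF11, HNRNPH2, HNRNPA1L2 and HNRNPCL2. The median log2 ratio was 0.23 for the 29 with a peak and 0.38 for the 10 without one.

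Where a gene was alone in its locus, was longer than 4 kb and had an orientation in the RefSeq promoter table, its start side and its far side could be told apart. This division was chosen after the peak values had been seen, and 28 members met it. EP400 lay on the start side in 21 of 28, against 34.0% of 6027 such genes and 44.0% of the 1162 in the highest quintile of mean FPKM. On the far side it lay in 7 of 28, against 4.56% and 7.49%. SRSF1 was one of these 7, with EP400 peaks of 250 bp at chr17:56076251-56076500 and 100 bp at chr17:56077151-56077250 downstream of its locus (chr17:56078280-56084707, minus strand).

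The bases upstream of 4 start sites are given, for 2 genes that gained H3.3 peak cover and 2 that lost it. Counted over both ends of the locus, SRSF1 and HNRNPA2B1 gained cover and PTBP1 and U2AF2 lost it, as described further on. On the start side alone, cover at SRSF1 was lower after EP400 siRNA (700 and 100 bp). At HNRNPA2B1 it was 200 and 688 bp there, so most of its gain lay on the far side. The sequences thus do not set a gain at the SRSF1 start beside a loss. The 4 genes were chosen after the H3.3 values had been seen. Each is the 250 bases before the RefSeq start in GRCh38.p14, 5′ to 3′ on the strand of the gene, with matches to the motifs listed after them in capitals. The peaks are on hg19, so the sequences and peaks were not laid over each other.
SRSF1 (chr17:58007247-58007496, minus strand): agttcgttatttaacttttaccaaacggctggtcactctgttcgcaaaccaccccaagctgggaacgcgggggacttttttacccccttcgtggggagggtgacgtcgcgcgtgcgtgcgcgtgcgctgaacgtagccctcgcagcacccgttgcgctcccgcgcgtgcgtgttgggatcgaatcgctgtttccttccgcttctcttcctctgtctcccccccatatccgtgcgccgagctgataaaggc
HNRNPA2B1 (chr7:26200747-26200996, minus strand): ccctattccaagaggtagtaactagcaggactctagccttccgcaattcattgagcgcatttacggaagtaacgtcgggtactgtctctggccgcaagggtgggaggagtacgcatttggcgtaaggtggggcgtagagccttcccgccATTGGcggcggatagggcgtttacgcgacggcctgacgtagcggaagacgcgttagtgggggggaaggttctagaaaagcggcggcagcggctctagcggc
PTBP1 (chr19:797202-797451, plus strand): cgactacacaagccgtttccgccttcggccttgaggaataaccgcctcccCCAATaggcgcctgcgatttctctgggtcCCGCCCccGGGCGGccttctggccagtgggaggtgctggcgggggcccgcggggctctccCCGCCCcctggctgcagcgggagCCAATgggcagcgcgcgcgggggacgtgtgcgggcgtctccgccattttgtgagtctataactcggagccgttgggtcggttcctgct
U2AF2 (chr19:55654785-55655034, plus strand): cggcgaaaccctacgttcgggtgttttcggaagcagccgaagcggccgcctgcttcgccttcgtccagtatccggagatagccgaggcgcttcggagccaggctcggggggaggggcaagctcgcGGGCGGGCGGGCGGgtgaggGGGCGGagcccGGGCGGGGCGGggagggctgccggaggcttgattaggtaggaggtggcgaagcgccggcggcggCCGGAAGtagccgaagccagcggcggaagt
The G and C content was 60% in SRSF1, 59.2% in HNRNPA2B1, 69.2% in PTBP1 and 72.4% in U2AF2. The first 2 held no GC box and the PTBP1 and U2AF2 sequences held 3 and 6, some of them overlapping. PTBP1 and U2AF2 both lie on chromosome 19. HNRNPL, with the largest loss of H3.3 cover, and SRSF10, with the largest gain, are not among the 4 genes. Whether other members differ in the same way was not tested.

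The motifs were searched on both strands in the 300 bases from 250 before to 50 after the start, in 54 promoters of 38 members and in 35116 promoters of the table, and promoters of one gene can share bases. TRA2A, SRSF2 and HNRNPA1 had no entry. The GC box (GGGCGG) was in 61.1% of member promoters and 45.0% of all, and the CCAAT box (CCAAT) in 46.3% and 34.6%. The E-box CACGTG was in 18.5% of member promoters and 7.26% of all. The ETS motif CCGGAAG was in 12.96% and 10.3%, and TATAAA in 11.1% and 11.5%. A 10-base NRF1 motif and a 10-base YY1 motif were in 0 of 54, and in 1.24% and 1.20% of all promoters. A match describes the letters alone and is no evidence of binding.

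The E-box matches are shown because theirs was the largest of these ratios between members and all promoters. They fell in 8 genes, 7 of them hnRNP genes, and none in an SRSF or TRA2 gene. Each line gives 30 bases around the match on the strand of the gene (GRCh38.p14), with the E-box in capitals.
HNRNPA3 (chr2:177212711-177212740): cggaaaacgcgtCACGTGacgactggcccc
HNRNPD (chr4:82374001-82374030): gcgctctcgcgtCACGTGaccgggacgcgc
HNRNPDL, first match (chr4:82430364-82430393): agaggcccggggCACGTGcagaaaggagcc
HNRNPDL, second match (chr4:82430572-82430601): ggagcccgagacCACGTGggcaggaaaagg
HNRNPH2, first match (chrX:101408168-101408197): ccgagagttgctCACGTGaccgagatctca
HNRNPH2, second match (chrX:101408201-101408230): gacgtaggcgctCACGTGattactcgctta
HNRNPH3 (chr10:68331631-68331660): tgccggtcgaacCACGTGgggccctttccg
HNRNPM (chr19:8444921-8444950): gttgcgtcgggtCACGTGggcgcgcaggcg
HNRNPUL1 (chr19:41262568-41262597): aacctctgggccCACGTGagtgtctgtccc
SF3B1 (chr2:197435119-197435148): tggcagttctgtCACGTGtcacccgacgga
The matches lay between 156 bases before and 24 bases after the start, the latter in HNRNPUL1. The 8 genes had log2 ratios from -1.13 in HNRNPUL1 to 0.48 in HNRNPDL.

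Pol II and MED26 peaks were at nearly all of these genes in both conditions. Pol II lay at the ends of 36 of 39 after mock (all genes, 85.3%) and 34 after EP400 siRNA (all genes, 80.0%), and MED26, a Mediator subunit tied to elongation, at 36 in both (all genes, 78.7% and 75.5%). The 2 genes with a Pol II peak in the mock list alone (all genes, 6.19%) were HNRNPC, with 800 bp, and HNRNPA1L2, with 700 bp. HNRNPC was at the same time among the genes with more RNA, at 65.2 against 36.8 FPKM. The 3 genes with no Pol II peak at their ends in either list were SRSF2, HNRNPH2 and HNRNPCL2. SRSF2 shares its locus of 45140 bp with MFSD11, and within that locus Pol II covered 2200 bp after mock and 2100 bp after EP400 siRNA.

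The bp covered by Pol II near the ends was lower after EP400 siRNA in 27 of 39 members (all genes, 73.4%) and higher in 5 (all genes, 8.33%). Summed over the members it was 66065 bp after mock and 50653 bp after EP400 siRNA, a ratio of 0.77, and over all analysed genes the ratio was 0.65. The largest differences were at HNRNPL (2622 and 1200 bp), HNRNPA1 (1900 and 500 bp) and HNRNPUL1 (1681 and 381 bp). Spearman's rho between the change in Pol II cover and the RNA ratio was 0.08 over the 39 genes, which share their libraries (all genes, 0.19). MED26 cover was 44557 and 41386 bp, a ratio of 0.93 (all genes, 0.80), with fewer bp in 20 members (all genes, 51.4%) and more in 13 (all genes, 18.7%).

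Of the mock Pol II peaks at member ends, 42 of 54 (77.8%) overlapped a Pol II peak after EP400 siRNA, against 70.0% for the peaks at all gene ends. For MED26 it was 44 of 55 (80.0%), against 70.0%. H3K18ac, an acetylation found at active promoters and enhancers, lay at 34 of 39 members (all genes, 72.8%). H3K4me1, typical of enhancers and of the flanks of promoters, lay at 10, or 25.6% (all genes, 30.5%; highest quintile of mean FPKM, 44.2%).

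**Figure D3:**
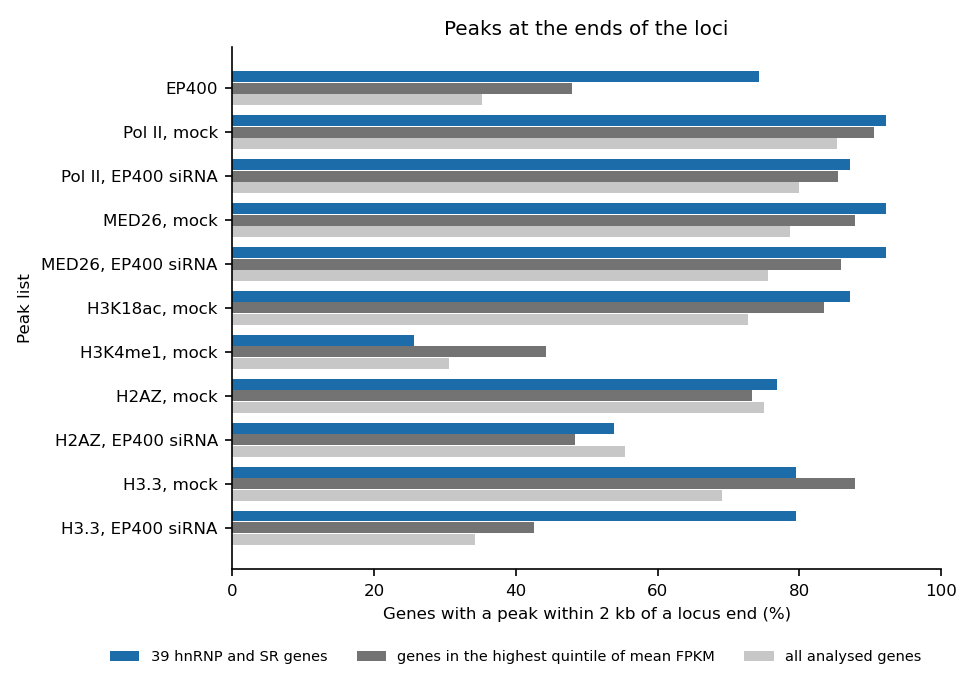
Share of genes with a peak within 2 kb of a locus end (bars, from 0 to 100%) in each list, for the 39 analysed hnRNP and SR genes, all genes in the highest quintile of mean FPKM, and all analysed genes. For H3.3 after EP400 siRNA the 3 bars stand at 79.5%, 42.5% and 34.3%.

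By share of genes with a peak, the H3.3 list after EP400 siRNA was the one of the 11 lists in which these genes lay farthest from all genes. Other lists of splicing genes were also above all genes there (34.3%): 61.9% of U1 and U2 snRNP genes, 60.5% of other splicing regulators and 63.6% of genes for SR protein kinases and import had such a peak, but 29.8% of the tri-snRNP and catalytic core. H3.3 is the histone H3 variant placed into chromatin outside replication, and is known at promoters, enhancers and along transcribed genes up to their ends. After mock siRNA an H3.3 peak lay at 31 of 39 members (all genes, 69.0%; highest quintile, 87.8%), and after EP400 siRNA again at 31 (79.5%; all genes, 34.3%; highest quintile, 42.5%). Both lists held a peak at 26 members, and 5 had one in the mock list alone, where 40.1% of all genes did. Those 5 were U2AF2, PTBP1, HNRNPL, HNRNPM and HNRNPAB, and all but HNRNPAB lie on chromosome 19, where 58.2% of all analysed genes had an H3.3 peak in the mock list alone. Another 5 (HNRNPA0, HNRNPC, SF3B1, TRA2A and SRSF11) had an H3.3 peak in the EP400 siRNA list alone, against 5.36% of all genes.

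The covered length showed the same contrast. Summed over the members, H3.3 peaks near the ends covered 45099 bp after mock and 42751 bp after EP400 siRNA, a ratio of 0.95, where the ratio over all analysed genes was 0.20. Cover was higher after EP400 siRNA in 19 members (all genes, 10.7%) and lower in 17 (all genes, 62.1%). The whole lists held 79838 peaks over 22752300 bp after mock and 41439 peaks over 9123200 bp after EP400 siRNA, so the list as a whole was smaller as well, and depth, which peak lists do not carry, cannot be told apart from loss. Of 115 mock H3.3 peaks at member ends, 32 (27.8%) overlapped an H3.3 peak after EP400 siRNA, against 7.65% at all gene ends and 10.3% in the highest quintile.

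The SR genes and the members on chromosome 19 stood at opposite ends. All 13 SRSF and TRA2 genes had an H3.3 peak after EP400 siRNA at an end of their locus. Those of SRSF9 lay only at the low end of the locus shared with GATC, and can belong to GATC. Cover summed over the 13 genes was 11625 bp after mock and 20770 bp after EP400 siRNA, a ratio of 1.79. In the hnRNP genes the sums were 29035 and 21068 bp, a ratio of 0.73. In the 5 members on chromosome 19 they were 13890 and 1500 bp, a ratio of 0.11, with all of the 1500 bp at HNRNPUL1. Over all analysed genes on chromosome 19 the ratio was 0.068, so the loss at these 5 was no larger than that of the chromosome. Gene density was also compared: in the lower 5 density groups 21 of 23 members had an H3.3 peak after EP400 siRNA (all genes there, 33.1%), and in the upper 5 groups 10 of 16 (all genes there, 35.5%). Among genes of the highest 2 quintiles of FPKM in the lower 5 density groups, it was 16 of 18 members and 39.7% of 1539 genes.

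H3.3 cover differed between the start and the far side of the genes. In the 28 members where the sides could be told apart, start side H3.3 peaks covered 13591 bp after mock and 5628 bp after EP400 siRNA. That was 41.4% of the mock length (all genes, 15.4%, highest quintile of mean FPKM, 10.9%). On the far side H3.3 peaks covered 23384 and 29421 bp. This was 125.8% of the mock length (all genes, 34.7%, highest quintile, 21.1%). A far side H3.3 peak lay at 20 of 28 members after mock (all genes, 36.4%, highest quintile, 70.1%). Cover on the far side was higher after EP400 siRNA in 15 of 28 members (all genes, 12.6%, highest quintile, 8.43%). It was lower there in 11 (all genes, 32.5%, highest quintile, 64.7%). Genes with no far side peak after mock could not lose cover there, and they count in these shares. On the start side cover was higher in 6 (all genes, 7.70%, highest quintile, 5.51%) and lower in 19 (all genes, 59.6%, highest quintile, 78.0%). Without the 5 members on chromosome 19, the far side cover after EP400 siRNA was 201% of the mock length. Together those 5 had lost most of their H3.3 cover, and they were left out after this had been seen, so the value had to rise. No all-gene value without that chromosome is given. Pol II, MED26, H2AZ and H3K18ac lay mostly on the start side: Pol II after mock at 28 of 28 starts and 5 far sides. Pol II lay at 90.3% and 16.7% of these sides in all genes, and at 95.2% and 36.7% in the highest quintile.

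SRSF1 had H3.3 peaks of 300 bp and 200 bp within 2 kb of its far end after mock, and a single peak of 3800 bp at chr17:56076301-56080100 after EP400 siRNA. That peak overlaps the 2 far side EP400 peaks given above. On its start side the H3.3 cover went the other way, from 700 to 100 bp. SRSF10 (chr1:24290837-24306953) had 100 bp on the far side after mock, and a peak of 3100 bp at chr1:24289801-24292900 after EP400 siRNA. HNRNPK (chr9:86582998-86595569) had 603 bp and 2698 bp on the far side, and HNRNPA2B1 (chr7:26229556-26240413) 1245 bp and 3156 bp, the latter mostly in 1 peak of 3700 bp at chr7:26228701-26232400. All 4 of these genes had a log2 RNA ratio above 0, from 0.30 in HNRNPA2B1 to 1.03 in SRSF1.

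PTBP1 (chr19:797392-812327) had H3.3 peaks of 1000 bp on either flank of its start and of 1300 bp at its far end after mock, and none after EP400 siRNA. U2AF2 (chr19:56165416-56186082) had 1085 bp on the start side and 1519 bp on the far side after mock, and 0 bp on both afterwards. HNRNPL (chr19:39327028-39342979) had 400 and 2973 bp, and also 0 bp on both. The RNA ratios of these 3 genes were -0.91, -1.06 and -0.55. HNRNPF, with 3501 bp after mock and 1100 bp after EP400 siRNA, lost cover at a ratio above 0 (0.68), and HNRNPA0 had 0 bp and 500 bp at a ratio of -1.21.

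**Figure D4:**
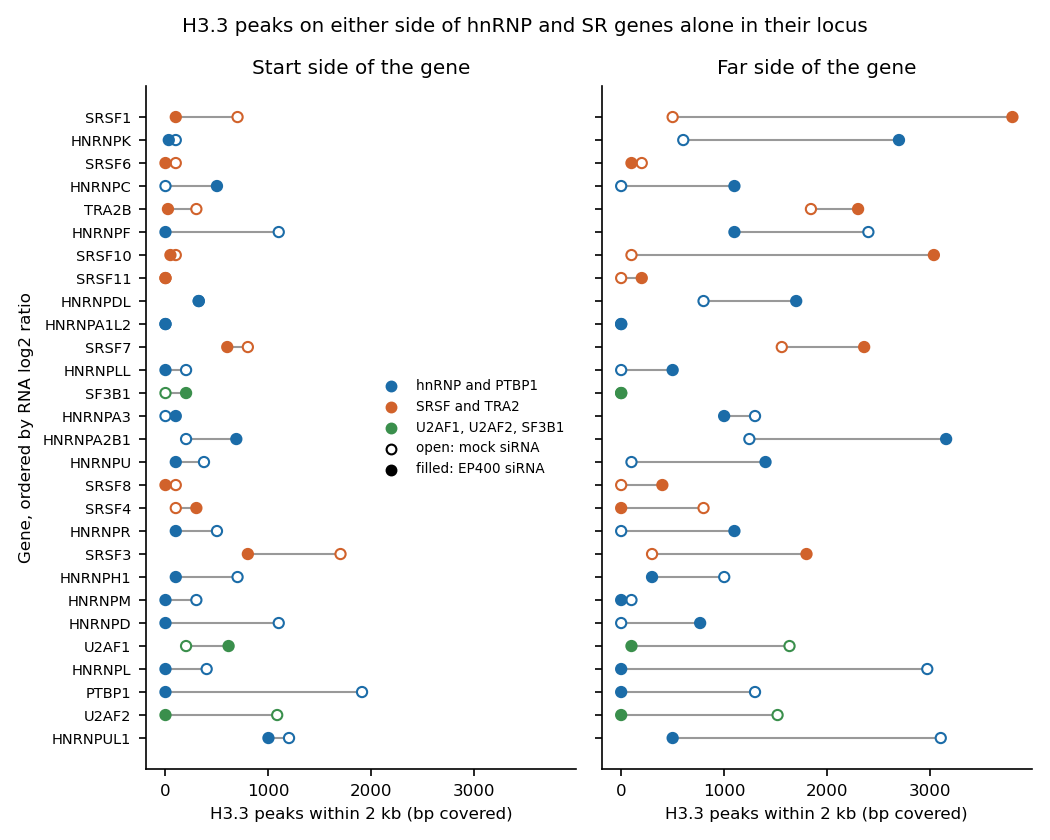
Length covered by H3.3 peaks (bp) within 2 kb of the start side (left) and the far side (right) of 28 hnRNP and SR genes after mock (open) and EP400 siRNA (filled), ordered by RNA ratio. On the far side SRSF1 goes from 500 to 3800 bp and HNRNPL from 2973 to 0 bp.

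Genes with more H3.3 cover and genes with less also differed in RNA. The 19 members with more cover had a median log2 RNA ratio of 0.38, with 17 above 0, and the 17 with less had a median of -0.10, with 7 above 0. Over all analysed genes the medians were 0.42 and -0.57, with 931 of 1254 and 2281 of 7242 genes above 0. Spearman's rho between the change in H3.3 cover and the RNA ratio was 0.48 over the 39 members and 0.45 over all genes. It was 0.29 over the 34 members off chromosome 19. In the members of the upper 5 density groups it was 0.72 (16 genes), and in those of the lower 5 groups 0.18 (23 genes). These values are across genes of the same libraries, and genes are not replicates.

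H2AZ is the variant of H2A found next to active start sites, and its values at these genes lay near those of all genes. A peak lay at 30 of 39 after mock (all genes, 75.1%) and at 21 after EP400 siRNA (all genes, 55.4%). Cover was 14200 and 6500 bp, a ratio of 0.46, where all genes had 0.43. It was lower in 27 members (all genes, 66.2%) and higher in 4 (all genes, 5.62%), and 22 of 46 mock peaks (47.8%) overlapped a peak after EP400 siRNA, against 48.9%. The largest differences were at HNRNPL (800 and 100 bp), HNRNPD (900 and 300 bp) and HNRNPR (600 and 0 bp).

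The transcript rows showed where the extra RNA of some genes was assigned. RefSeq rows starting NR are non-coding transcripts, and in SR genes these are often forms with a conserved exon that ends the reading frame early. Of the members with a mean of 5 FPKM or more, 29 had several rows and 5 of these had an NR row. The NR share of the gene's FPKM was up by 10 percentage points or more in 3 of 5, where 6.12% of 654 protein-coding genes with NM and NR rows were up by as much and 8.72% down.

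HNRNPDL had 8.86 FPKM in its NR row after mock and 18.5 FPKM after EP400 siRNA, or 55.5% and 81.6% of the gene, while its main coding row, NM_031372, had 7.10 and 3.75 FPKM. So its total was higher and its main coding row was lower. SRSF6 had 0.870 and 3.83 FPKM in its NR row (8.93% and 20.4%), and its coding row also had more, 8.86 and 15.0 FPKM. SRSF3 had 1.05 and 4.42 FPKM in its NR row (3.62% and 14.1%) with the coding row at 28.1 and 26.97 FPKM. SRSF2 moved by 2.33 points in the same direction. SRSF1 went the other way, with 1.62 and 1.31 FPKM in its NR row (13.3% and 5.05%). Below the limit of 5 FPKM, which was set on the mean of the gene, the NR shares of SRSF8 (12.9% and 3.74%) and SRSF10 (36.6% and 34.3%) were also lower after EP400 siRNA. The authors' confidence limits of single rows are wide, and how fragments are shared among overlapping rows is an estimate.

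**Figure D5:**
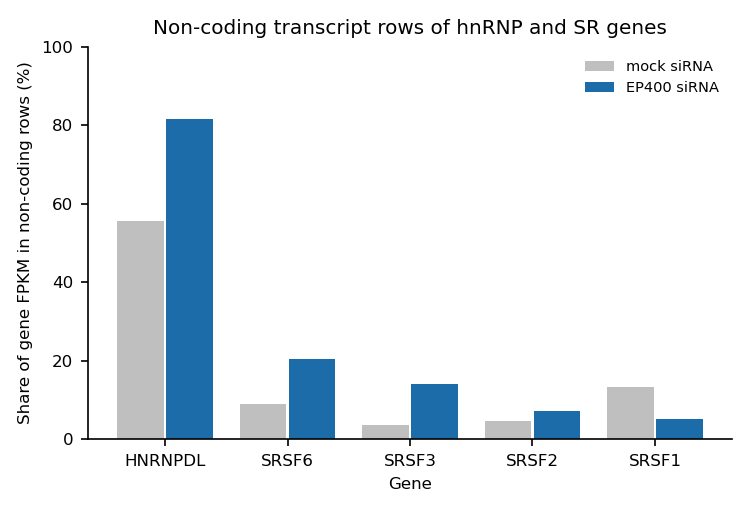
Share of a gene's FPKM (%, bars from 0) in its non-coding rows after mock (grey) and EP400 siRNA (blue), 1 library each, for the 5 genes with such a row and a mean of 5 FPKM or more. The bars of HNRNPDL stand at 55.5% and 81.6%, and of these 5 genes SRSF1 alone is lower after EP400 siRNA.

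Counted over rows of any kind, shifts were about as frequent as elsewhere. A row share moved by 10 points or more in 8 of 29 members (27.6%), against 28.9% of 3543 protein-coding genes. Besides the 3 genes above they were HNRNPH1, HNRNPK, HNRNPR, SRSF11 and U2AF1. In HNRNPH1 the row NM_001257293 held 77.9% after mock and 43.4% after EP400 siRNA. The HNRNPH1 total was close to constant on the deposited scale, at 26.4 and 27.3 FPKM. In HNRNPK the row NM_002140 went from 7.47 to 29.3 FPKM (24.3% and 46.3%) and NM_031262 from 8.03 to 4.601 FPKM. In U2AF1 the row NM_006758 held 63.0% and 47.5%. HNRNPR shifted towards NM_005826 (44.1% and 61.9%) and SRSF11 towards NM_001190987 (24.6% and 35.5%).

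On the deposited scale, the lists of other splicing genes had medians below the 0.25 of all members and the 0.46 of the SR genes. On that scale 6.11% of all genes were at least 2-fold higher and 22.9% lower. Against all genes of the same quintile of mean FPKM, the members (0.63) were closer to 3 of the lists. Those medians were 0.48 for U1 and U2 snRNP genes, 0.54 for the tri-snRNP and core and 0.51 for other regulators. So a ratio above that of genes of the same level was shared with these lists. Of 21 analysed U1 and U2 snRNP genes, 0 were at least 2-fold higher and 5 lower, with a median log2 ratio of -0.23, and the largest were SF3A2 (-1.30), SNRPA (-1.25), SNRNP70 (-1.20) and SF3B5 (-1.08), with SNRPB (-1.04) as the fifth lower one. In the tri-snRNP and catalytic core, 1 of 47 was higher (RBM22, 1.13) and 2 lower (LSM4, -1.37, and LSM7, -1.31), with a median of -0.02. Of 43 other splicing regulators 3 were higher (KHDRBS3, 1.42, RBM39, 1.08, and SYNCRIP, 1.05) and 2 lower (NOVA2, -1.77, and KHSRP, -1.03), with a median of 0.11. Rescaled to equal sums, where 31.5% of all genes were higher and 5.97% lower, the counts turned to 4 higher and 0 lower for U1 and U2, 19 and 0 for the tri-snRNP and core, and 18 and 1 for the other regulators.

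Among 11 genes for kinases, phosphatases and import of SR proteins, 0 were higher and 2 lower (PPP1CA, -1.39, and DYRK1B, -1.09), with a median of 0.11. SRPK1, the cytoplasmic SR protein kinase, had 4.12 and 8.73 FPKM (0.93), and the phosphatase subunit PPP1CC had a ratio of 0.98. Of 15 nonsense-mediated decay factors 1 was higher (SMG8, 1.06) and 2 lower (SMG9, -1.21, and UPF1, -1.06), with a median of 0.06. After rescaling these 2 lists had 5 and 6 genes higher and 0 lower. Against all genes of the same quintile of mean FPKM their medians were 0.18 and 0.16. On the deposited scale, all of these medians lay above the -0.20 of all analysed genes except that of the U1 and U2 snRNP genes.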

How the data were processed

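The authors deposited RNA values as FPKM per RefSeq row with confidence limits, per the file headers, and peak lists without score, whose widths are coverage in bp (deposited interval coordinates). Bowtie 0.12.9, TopHat2 2.0.8, Cuffdiff 2.0.2 and hg19 are named in the submitters' processing notes. The peak caller is not given in the sources used here. Symbols came from a GRCh38.p14 table used for names. Rows under 200 nt were left out, rows were summed per gene, genes with a failed estimate (122) were dropped, and log2((EP400 siRNA FPKM + 1)/(mock FPKM + 1)) was computed for genes averaging at least 1 FPKM. A peak counted at an overlap of 1 bp with the 2 kb on either side of a locus end. The members and lists were chosen with earlier results of these data known. All analysed members were named. For transcripts the rule was a share moved by 10 points at a mean of 5 FPKM, for peaks the 8 largest changes per antibody, and for other lists up to 4 genes by size of ratio. Genes named for H3.3, EP400 or other lists outside that rule were chosen after their values were seen. Python 3.11.15 with pandas 2.3.3 was used, and the functions were tested on simulated data. Other settings are in the closing section.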

Additional observations from a re-analysis of the deposited data

How the results depend on the processing

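The scale of the RNA libraries set the counts of called genes. Median centring gave 4 members at least 2-fold higher and 1 lower, with medians of 0.45 (all members), 0.43 (hnRNP) and 0.66 (SR). So centred, 1260 of all 11671 genes were higher and 1825 lower. Rescaling both libraries to equal sums gave 20 higher and 0 lower (all genes, 31.5% and 5.97%). The medians were 1.01, 0.999 and 1.21, where the median of all genes was 0.48. Centring by local gene density gave 4 and 1, and centring by quintile of mean FPKM 11 and 0, with medians of 0.63, 0.61 and 0.66. The median of all genes is 0 in both centrings by construction. No all-gene share is given beside the counts of these centrings, so they cannot be set against other genes. With the row of highest FPKM alone per gene, 1 member was higher and the SR median was 0.32. H3K4me1 lay at 5 members within 1 kb and at 18 within 5 kb of an end. With equal numbers of peaks in both lists H2AZ lay at 19 members after mock. The counts for the highest row, H3K4me1 and H2AZ also stand without an all-gene share. Retention of mock peaks moved to 66.7% (Pol II), 17.4% (H3.3) and 37.0% (H2AZ) where 0.5 of the mock peak had to overlap, to 90.7% (Pol II) and 85.7% (MED26) within 1 kb, to 71.0% (Pol II) and 21.5% (H3.3) within 5 kb, and to 87.5% (Pol II), 32.9% (H3.3) and 73.9% (H2AZ) with equal numbers of peaks. Without chromosome 19, an alternative chosen after seeing the data, far side H3.3 cover after EP400 siRNA was 201% of mock. The members so left out had lost most of their H3.3 cover, so that value had to rise. The other 105 values of these results stayed within the limits set for a change. Rescaling to equal sums changed the sign of 8 members with a ratio between -0.61 and 0, of which 0 were called, and 0 called genes reversed. The cause of each shift was not tested. No paired analysis was possible because each condition had 1 library. Depth is unknown for FPKM and for peak lists, so no value here has a counting error.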
